A study of Homo sapiens with 6 samples.

Results

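The 46 genes here are mostly ones that repair broken and crosslinked DNA by homologous recombination, the Fanconi pathway, end joining and single-strand break repair. They were selected by symbol from a table of 24580 rows: every symbol beginning with FANC and a further letter or with RAD50 to RAD54, XRCC1 to XRCC6, BRCA1, BRCA2, PALB2, BARD1, BRIP1, RBBP8, MRE11, NBN, ATM, ATR, CHEK1, CHEK2, BLM, WRN, PARP1, PARP2, LIG3 and LIG4. All 46 are annotated as protein-coding. RNA was sequenced in 3 libraries of LoVo-HM, which the labels give as a subline of LoVo with high metastatic capacity, and in 3 libraries of wild-type LoVo, an established human colorectal cancer cell line. Neither line was treated, the labels name no added gene, deletion or clone, and the derivation of LoVo-HM is not described. Nothing in the labels says that the 3 libraries of a line came from separate cultures, so p-values measure the spread between libraries, which may be technical.

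In homologous recombination, the MRE11, RAD50 and NBN complex and RBBP8 trim the ends of a broken chromosome. BRCA1, PALB2 and BRCA2 then act on the exposed strand, which pairs with the intact sister copy that serves as a template. The Fanconi core complex marks FANCD2 and FANCI with ubiquitin where a crosslink has stopped a replication fork, and recombination completes the repair. End joining, which starts with the Ku proteins XRCC5 and XRCC6, seals breaks without a template, and PARP1 senses nicks and breaks and recruits XRCC1 and LIG3.

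In LoVo-HM 15 of the 44 genes that could be tested rose, by at most 1.52-fold, and 1 fell. The largest increases were in the nuclease MRE11 (1.52-fold), the Fanconi core genes FANCC (1.51-fold) and FANCA (1.44-fold), the recombination mediator BRCA2 (1.37-fold) and the BCDX2 complex subunit XRCC2 (1.35-fold). The damage kinases ATM, ATR, CHEK1 and CHEK2 did not pass the test, and RAD51B, also of the BCDX2 complex, was the gene that fell. The 15 that rose are 34.1% of the 44, where 21.8% of all 14487 tested genes rose. The 1 that fell is 2.27% of the 44, where 23.1% of all tested genes fell. Without regard to direction, 36.4% of the 44 passed, where 44.9% of all tested genes did. With a log2 difference of at least 0.5, 3 members (6.82%) rose, where 7.14% of all tested genes did, and 0 of the 44 fell by limma, where 11.4% did. A change of at least 1 on the log2 scale was found in 0 of the 44 by limma, where 6.56% of all tested genes had one. The median log2 difference was 0.13 over the 44 genes and 0.003 over all tested genes, and 32 of the 44 differences (72.7%) were above 0, against 50.3% of all tested genes.

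Levels are in FPKM, a fragment count divided by transcript length and by the mapped fragments of a library, so that genes can be compared per length. Each difference is the mean of LoVo-HM less that of LoVo after log2(FPKM + 1), with its SE, and this scale understates changes at low levels. The p-values come from limma, adjusted by the Benjamini-Hochberg method over the 14487 rows whose mean reached 0.5 FPKM, and a gene passed the test at an adjusted p under 0.05. Library totals were 424624 to 428265 FPKM in LoVo-HM, against 434108 to 439082 FPKM in LoVo, and the read depth is unknown, so no counting error is given. Correlations of log2(FPKM + 1) between libraries were 0.995 within a line and 0.969 to 0.97 between lines. Of the 12 colorectal epithelial markers 7 could be tested, of which 5 rose and 2 fell. EPCAM was at 51.7 ± 2.60 FPKM in LoVo-HM, against 128.1 ± 1.99 FPKM in LoVo, CDH1 at 7.91 ± 0.359 FPKM in LoVo-HM, against 48.01 ± 1.38 FPKM in LoVo, and CDX2 at 14.7 ± 0.960 FPKM in LoVo-HM, against 8.39 ± 0.129 FPKM in LoVo (SD, n = 3 each). Of these markers KRT8, KRT18 and KRT19 were the most abundant in LoVo-HM, and were named after their values were seen. They rose by 0.17 ± 0.033, 0.65 ± 0.035 and 1.88 ± 0.052 on the log2 scale. In LoVo, EPCAM, which fell, was above KRT19 (104.7 FPKM). KRT20 was at 3.07, 2.39 and 3.30 FPKM in the LoVo-HM libraries and was listed at 0 in every LoVo library, and CDX1 and VIL1 were listed at 0 in all 6 libraries. Markers of immune cells summed to 0.495 to 0.539 FPKM in LoVo-HM, against 0.541 to 0.649 FPKM in LoVo, and those of endothelial cells to 0.414 to 0.682 FPKM in LoVo-HM, against 0.440 to 0.632 FPKM in LoVo, with PTPRC and PECAM1 listed at 0 in every library. Fibroblast markers summed to 4.92 to 5.75 FPKM in LoVo-HM, against 4.83 to 6.36 FPKM in LoVo, nearly all of it COL1A1 (4.75 ± 0.436 FPKM in LoVo-HM, against 5.62 ± 0.801 FPKM in LoVo). Fewer cells that express a gene and less RNA per cell cannot be told apart in such bulk libraries.

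Sequence upstream of the start is shown for the 4 genes with the largest log2 increases, which were picked by those values. The windows run from 250 bases before the RefSeq start to 30 bases after it (GRCh38.p14, written 5′ to 3′ along the gene). Capitals mark every match on either strand to 4 kinds of motif, namely CCAAT, the box bound by NF-Y, the E2F-type sites TTTCCCGC, TTTCGCGC and TTTGGCGC, the CHR element of cell cycle genes in its form TTTGAA and that element's rarer form, which reads TTCGAA. The windows are chr11:94493815-94494094 (minus strand) for MRE11, chr9:95317680-95317959 (minus strand) for FANCC, chr16:89816618-89816897 (minus strand) for FANCA and chr7:152676112-152676391 (minus strand) for XRCC2.
MRE11: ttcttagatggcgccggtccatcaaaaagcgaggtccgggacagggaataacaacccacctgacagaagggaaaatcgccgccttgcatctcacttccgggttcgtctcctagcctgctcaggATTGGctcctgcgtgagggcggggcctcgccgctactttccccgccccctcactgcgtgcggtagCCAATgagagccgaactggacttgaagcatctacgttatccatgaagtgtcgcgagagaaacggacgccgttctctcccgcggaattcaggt
FANCC: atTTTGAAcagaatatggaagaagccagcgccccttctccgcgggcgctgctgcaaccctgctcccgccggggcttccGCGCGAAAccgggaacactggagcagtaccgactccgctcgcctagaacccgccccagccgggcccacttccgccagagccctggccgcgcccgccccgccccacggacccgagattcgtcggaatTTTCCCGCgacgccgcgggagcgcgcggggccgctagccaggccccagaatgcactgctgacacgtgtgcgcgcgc
FANCA: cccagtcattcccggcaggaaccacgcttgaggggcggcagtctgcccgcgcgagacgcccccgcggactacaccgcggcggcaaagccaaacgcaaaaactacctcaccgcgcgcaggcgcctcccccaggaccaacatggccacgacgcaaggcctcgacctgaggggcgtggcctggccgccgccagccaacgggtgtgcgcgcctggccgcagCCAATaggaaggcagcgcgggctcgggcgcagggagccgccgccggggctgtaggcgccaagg
XRCC2: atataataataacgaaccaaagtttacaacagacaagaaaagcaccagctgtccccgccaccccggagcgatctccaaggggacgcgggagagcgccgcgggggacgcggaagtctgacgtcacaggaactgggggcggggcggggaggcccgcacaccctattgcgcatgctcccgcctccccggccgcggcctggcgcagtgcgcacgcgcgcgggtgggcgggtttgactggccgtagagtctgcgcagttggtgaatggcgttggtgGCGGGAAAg
CCAAT begins 62 bases before the MRE11 start and 33 before the FANCA start, and MRE11 has a further copy on the other strand. TTTCCCGC begins 46 bases before the FANCC start, and in XRCC2 it lies on the other strand, 21 bases after the start. FANCC also holds TTTCGCGC on the other strand and TTTGAA near the 5′ edge of its window, and its further RefSeq start has a window with none of these motifs. Windows of 300 bases, reaching 50 bases past the start, were found for 39 of the 46 genes, 54 windows in all. CCAAT was present in 44.4% of these windows, against 34.6% of all 35116 windows. TTTCCCGC was present in 5.56% (3 windows, of FANCC, FANCD2 and XRCC2), against 1.63%. TTTGGCGC and TTTCGCGC were each present in 1.85% of the windows of the repair genes (1 window each, of XRCC6 and FANCC), against 0.652% and 0.515% of all windows. TTTGAA was in 7.41%, against 15.2%, while for the rarer CHR form TTCGAA the shares were 1.85% and 1.45%. CCAAT was found in 6 of the 12 genes with a window that rose and in 12 of the 25 with a window that did not pass the test. These matches describe the letters in the windows and were not tested.

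The mean levels of the tested genes ran between 2.01 FPKM (RAD51B) and 163.6 FPKM (XRCC5) in LoVo-HM. XRCC5, XRCC6 and PARP1 stood above 100 FPKM in both lines and together made up 43.0% of the summed level in LoVo-HM and 40.5% in LoVo. The next genes in order were the same in both lines, FANCI, XRCC2 and RBBP8. Below 10 FPKM were 18 of the 44 genes in LoVo-HM and 22 in LoVo, with RAD51D and RAD51B last in both lines. The summed level of all 46 genes was 1071, 1028 and 1088 FPKM in the LoVo-HM libraries, against 895.6, 900.3 and 918.9 FPKM in the LoVo libraries. RAD51AP2 was at 0.0276, 0.0155 and 0.145 FPKM in LoVo-HM, against 0.229, 0.197 and 0.179 FPKM in LoVo, and FANCD2OS, which lies on the strand opposite FANCD2, was above 0 in 1 library of each line; both were too low to test.

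**Figure D1:**
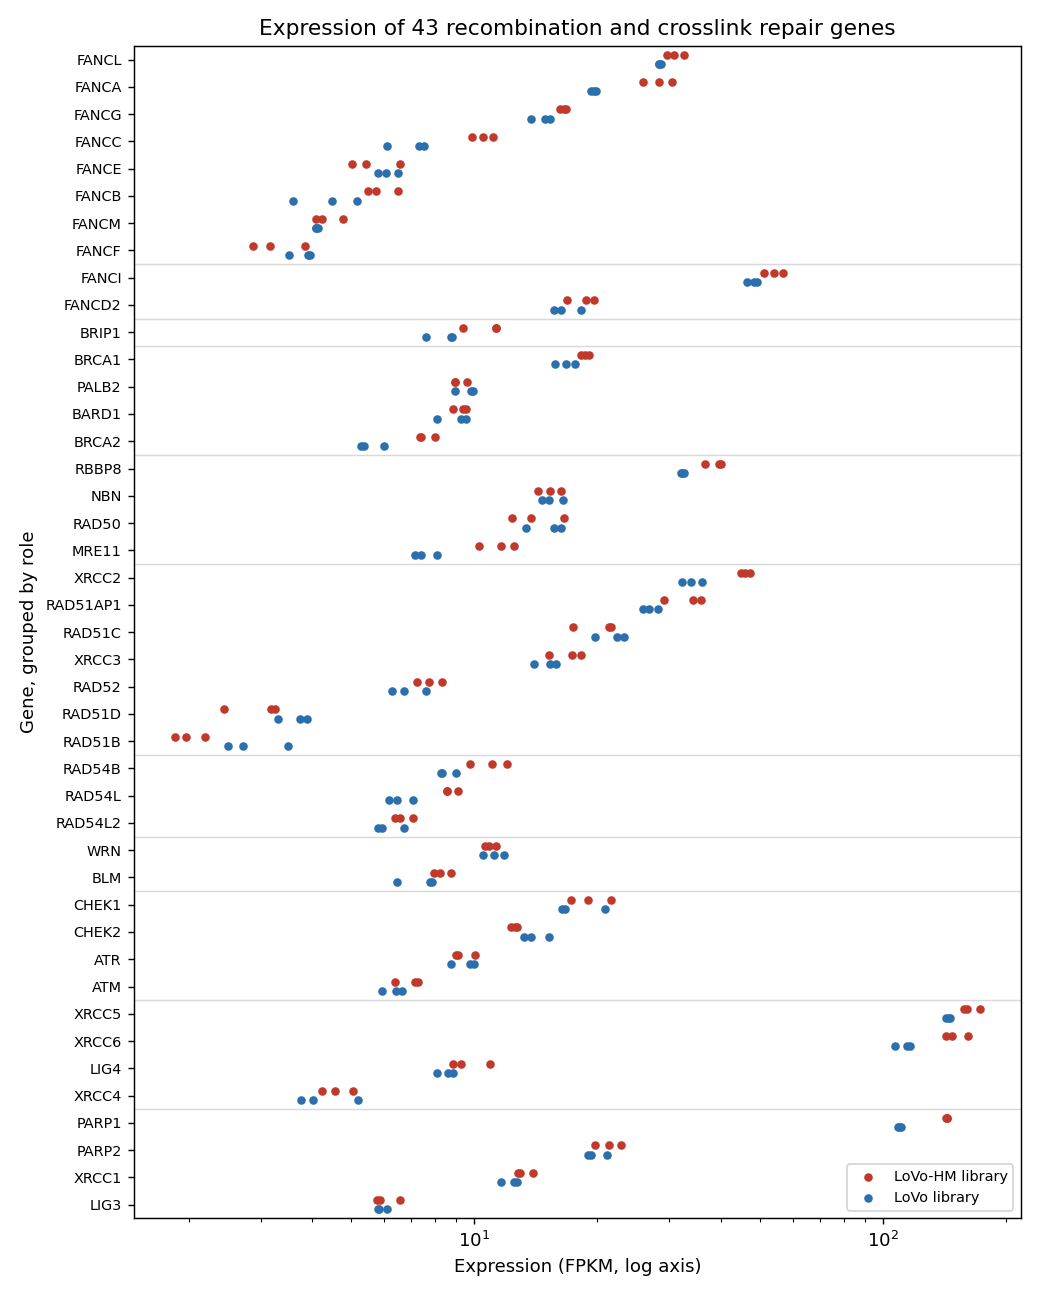
Expression of 43 tested genes in each library, with FPKM on a log axis and genes in rows grouped by role; the upper point row of each gene is LoVo-HM (red), the lower one LoVo (blue). XRCC5, XRCC6 and PARP1 stand above 100 FPKM in all 6 libraries, and RAD51B and RAD51D have the lowest means in both lines.

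Of the 8 tested genes of the Fanconi core and its upstream factor, FANCC, FANCA and FANCB rose and 5 did not pass. The 3 that rose are 37.5% of the 8, where 21.8% of all tested genes rose. FANCC, which sits in a subcomplex with FANCE and FANCF (ENSG00000158169, chromosome 9, 95099054 to 95426796), was at 11.1, 10.5 and 9.88 FPKM in LoVo-HM, against 6.11, 7.53 and 7.30 FPKM in LoVo. Every LoVo-HM library was above every LoVo library (0.53 ± 0.087, limma adjusted p = 0.00124). FANCA, a subunit that pairs with FANCG (ENSG00000187741, chromosome 16, 89737549 to 89816657), was at 30.5, 28.3 and 25.9 FPKM in LoVo-HM, against 19.8, 19.3 and 19.6 FPKM in LoVo. Its groups did not overlap either, and the LoVo libraries lay close together (0.50 ± 0.065, limma adjusted p = 0.000331). Positions of genes are GENCODE 29 spans on GRCh38. FANCA shares 22.4% of its exonic bases with ZNF276 on the opposite strand, which rose as well (13.4 ± 0.634 FPKM in LoVo-HM, against 9.50 ± 1.10 FPKM in LoVo, SD, n = 3 each, 0.46 ± 0.084). The strand setting of the counting is not given, so reads from the shared stretch cannot be told apart.

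FANCB, an X-linked subunit of the ligase module, rose with a smaller margin (ENSG00000181544). It was at 5.74, 5.49 and 6.51 FPKM in LoVo-HM, against 5.16, 3.61 and 4.48 FPKM in LoVo (0.36 ± 0.115, limma adjusted p = 0.033). The call was lost without LoVo-HM replicate 1 (limma adjusted p = 0.0659), LoVo-HM replicate 3 (0.102), LoVo replicate 2 (0.095) or LoVo replicate 3 (0.0639), and without a filter on low values (0.0752). FANCL, the ubiquitin ligase of the core, was at 30.99 ± 1.48 FPKM in LoVo-HM, against 28.4 ± 0.204 FPKM in LoVo, and FANCG at 16.5 ± 0.258 FPKM in LoVo-HM, against 14.7 ± 0.805 FPKM in LoVo (SD, n = 3 each). Both had groups that did not overlap and missed the threshold (0.12 ± 0.051 and 0.16 ± 0.059, limma adjusted p = 0.0855 and 0.0539). FANCL shares 26.6% of its exonic bases with VRK2 on the opposite strand, which fell (-0.53 ± 0.072). FANCE was at 5.68 ± 0.795 FPKM in LoVo-HM, against 6.12 ± 0.347 FPKM in LoVo, FANCF at 3.29 ± 0.498 FPKM in LoVo-HM, against 3.80 ± 0.237 FPKM in LoVo, and the translocase FANCM, which brings the core to DNA, at 4.37 ± 0.355 FPKM in LoVo-HM, against 4.11 ± 0.0271 FPKM in LoVo. The groups of these 3 overlapped, with log2 differences of -0.10, -0.17 and 0.07.

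Of the pair that the core marks with ubiquitin, FANCI rose slightly and FANCD2 did not pass. FANCI (ENSG00000140525, chromosome 15, 89243949 to 89317261) was at 54.2, 51.05 and 56.9 FPKM in LoVo-HM, against 48.4, 46.5 and 49.1 FPKM in LoVo, and the groups did not overlap. Its log2 difference was the smallest called among the 44 genes (0.17 ± 0.052, limma adjusted p = 0.031). The call was lost without LoVo-HM replicate 1 (limma adjusted p = 0.0834), LoVo-HM replicate 3 (0.078), LoVo replicate 1 (0.0638) or LoVo replicate 2 (0.107), and with a variance fit that had no intensity trend (0.0716). POLG, which lies on the opposite strand over 8.33% of the exonic bases of FANCI, rose too (0.35 ± 0.058). FANCD2 (ENSG00000144554, chromosome 3, 10026414 to 10101930) was at 19.6, 16.8 and 18.7 FPKM in LoVo-HM, against 15.6, 16.3 and 18.2 FPKM in LoVo, with overlapping groups (0.13 ± 0.078, limma adjusted p = 0.207). The ratio of FANCD2 to FANCI was 0.340 ± 0.0181 in LoVo-HM, against 0.348 ± 0.0243 in LoVo. BRIP1, the BRCA1-bound helicase also known as FANCJ, rose, with 11.3, 9.40 and 11.3 FPKM in LoVo-HM, against 7.63, 8.79 and 8.81 FPKM in LoVo (0.31 ± 0.090, limma adjusted p = 0.0218). Without LoVo-HM replicate 1, LoVo-HM replicate 3 or LoVo replicate 1 the BRIP1 call was lost (limma adjusted p = 0.0776, 0.0685 and 0.0728).

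**Figure D2:**
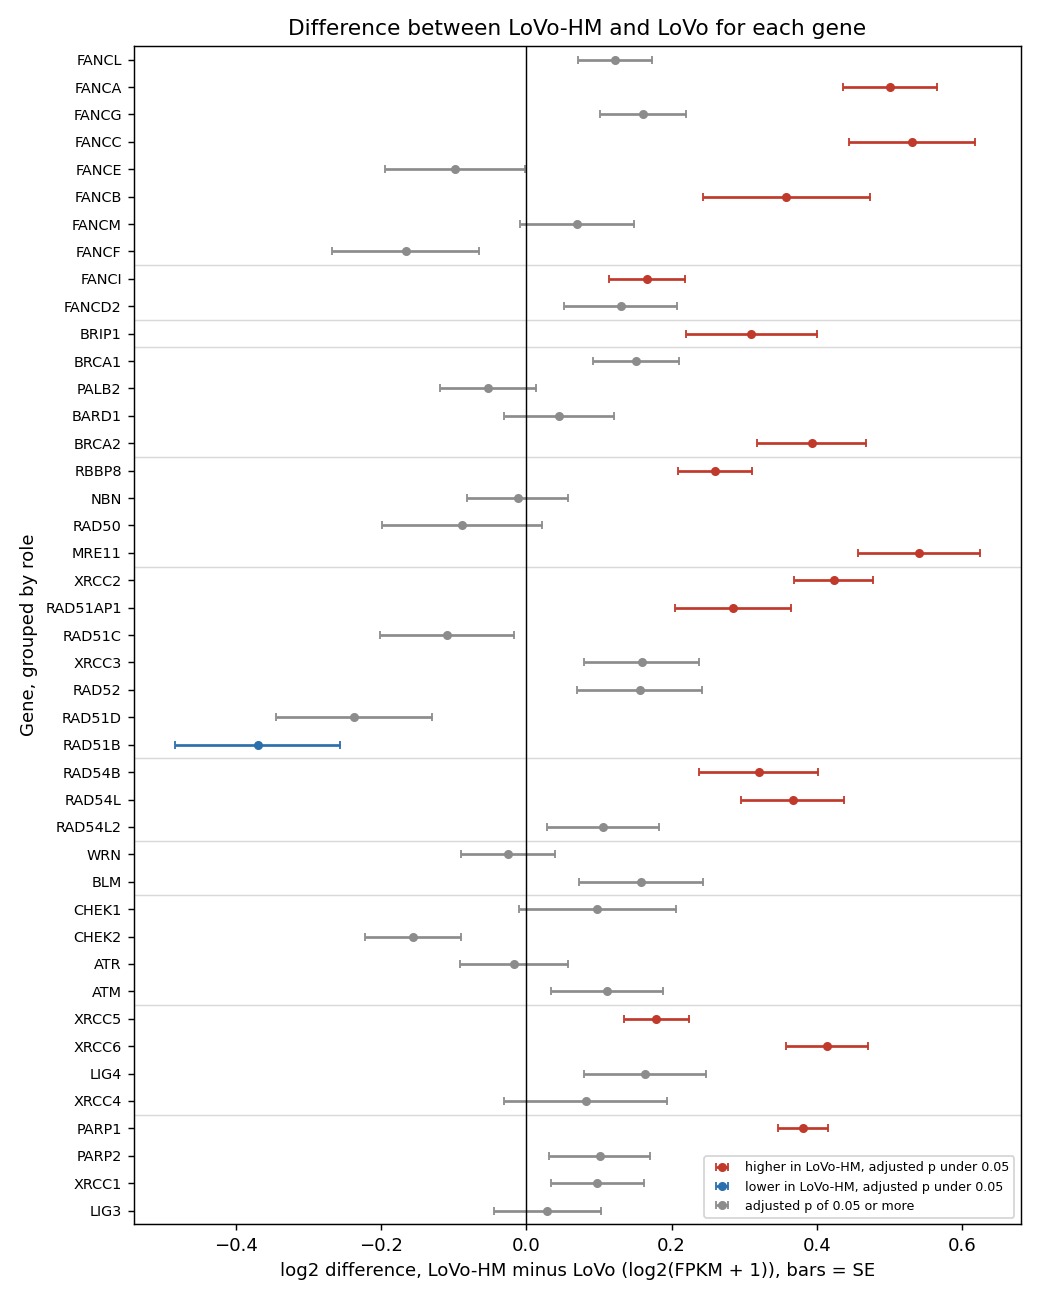
Log2 difference of 43 tested genes, LoVo-HM minus LoVo on the log2(FPKM + 1) scale, with bars of 1 SE; genes are grouped by role and coloured by whether they passed the limma threshold. MRE11, FANCC and FANCA lie furthest to the right at 0.54, 0.53 and 0.50, and RAD51B furthest to the left at -0.37.

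Among the BRCA proteins, BRCA2 rose and its partners did not pass the test. BRCA2, a mediator of strand exchange (ENSG00000139618, chromosome 13, 32315474 to 32400266), was at 7.39, 7.36 and 8.03 FPKM in LoVo-HM, against 5.37, 5.27 and 5.998 FPKM in LoVo. Its groups were well apart (0.39 ± 0.075, limma adjusted p = 0.00294). BRCA1, the ligase subunit that promotes resection (ENSG00000012048, chromosome 17, 43044295 to 43170245), was at 18.6, 19.03 and 18.3 FPKM in LoVo-HM, against 16.7, 17.6 and 15.7 FPKM in LoVo. The BRCA1 groups did not overlap but the difference missed the threshold (0.15 ± 0.059, limma adjusted p = 0.0654). It passed when libraries were rescaled to equal totals (limma adjusted p = 0.0344) or quantile-normalized (0.0469), within a range of 0.0344 to 0.195 over all alternatives. PALB2, the bridge between BRCA1 and BRCA2 (ENSG00000083093, chromosome 16, 23603160 to 23641310), was at 9.58, 8.97 and 8.95 FPKM in LoVo-HM, against 9.91, 8.97 and 9.80 FPKM in LoVo, and its groups overlapped (-0.05 ± 0.066, limma adjusted p = 0.546). BARD1, the partner of BRCA1, was at 9.27 ± 0.344 FPKM in LoVo-HM, against 8.97 ± 0.774 FPKM in LoVo (0.05 ± 0.076). The ratio of BRCA2 to PALB2 was 0.771, 0.821 and 0.897 in LoVo-HM, against 0.542, 0.588 and 0.612 in LoVo, and that of BARD1 to BRCA1 overlapped between the lines. Ratios given here were chosen after the values were seen and were not tested.

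In the MRE11, RAD50 and NBN complex the nuclease subunit had the lowest mean of the 3 in both lines and was the one that rose. MRE11 (ENSG00000020922, chromosome 11, 94415578 to 94493908) was at 12.5, 10.3 and 11.6 FPKM in LoVo-HM, against 8.12, 7.40 and 7.14 FPKM in LoVo. It had the largest log2 difference of the 44 genes and no overlap between the lines (0.54 ± 0.084, limma adjusted p = 0.00095). RAD50, the coiled-coil ATPase, was at 14.2 ± 2.14 FPKM in LoVo-HM, against 15.1 ± 1.53 FPKM in LoVo, and NBN, the subunit that binds ATM, at 15.3 ± 0.991 FPKM in LoVo-HM, against 15.4 ± 0.951 FPKM in LoVo (SD, n = 3 each). Neither passed the test (-0.09 ± 0.110 and -0.01 ± 0.070, limma adjusted p = 0.543 and 0.903). The MRE11 to RAD50 ratio was 0.906, 0.832 and 0.704 in LoVo-HM, against 0.606, 0.471 and 0.438 in LoVo, whereas the NBN to RAD50 ratio was 1.08 ± 0.0911 in LoVo-HM, against 1.03 ± 0.102 in LoVo. RAD50 shares 90.6% of its annotated exonic bases with the same-strand model AC116366.3, which was listed at 0.877, 0.559 and 0.518 FPKM in LoVo-HM, against 3.48, 0.864 and 0.244 FPKM in LoVo, so the split of reads between these models is uncertain. RBBP8, the resection factor also called CtIP, rose, with 40.1, 36.7 and 39.7 FPKM in LoVo-HM, against 32.1, 32.1 and 32.6 FPKM in LoVo (0.26 ± 0.051, limma adjusted p = 0.00324).

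Of RAD51B, RAD51C, RAD51D, XRCC2 and XRCC3, which assist strand exchange in the BCDX2 complex or in the complex of RAD51C with XRCC3, XRCC2 rose and RAD51B fell. XRCC2 (ENSG00000196584) was at 45.9, 44.8 and 47.3 FPKM in LoVo-HM, against 32.2, 33.9 and 36.1 FPKM in LoVo, with a clear gap between the lines (0.42 ± 0.054, limma adjusted p = 0.000318). RAD51B (ENSG00000182185) was at 1.97, 2.20 and 1.85 FPKM in LoVo-HM, against 3.50, 2.49 and 2.71 FPKM in LoVo. Its groups did not overlap (-0.37 ± 0.114, limma adjusted p = 0.0283), and it had the lowest mean level of the tested genes. The RAD51B call was lost without LoVo-HM replicate 1, LoVo-HM replicate 3 or LoVo replicate 1 (limma adjusted p = 0.0721, 0.081 and 0.0866), without a filter on low values (0.0608) and after quantile normalization (0.0843).

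XRCC2, RAD51B, RAD51C and RAD51D form the BCDX2 complex, and their FPKM values were far from equal. The lengths by which fragment counts were divided are not given, so levels of different genes compare only roughly. The ratio of XRCC2 to RAD51D was 15.8 ± 2.64 in LoVo-HM, against 9.42 ± 1.36 in LoVo, without overlap. RAD51D was at 2.44, 3.25 and 3.18 FPKM in LoVo-HM, against 3.89, 3.75 and 3.30 FPKM in LoVo, a difference that missed the threshold (-0.24 ± 0.107, limma adjusted p = 0.104). RAD51C, which is shared with the complex that holds XRCC3, was at 20.1 ± 2.32 FPKM in LoVo-HM, against 21.7 ± 1.77 FPKM in LoVo (-0.11 ± 0.092), and XRCC3 at 16.95 ± 1.58 FPKM in LoVo-HM, against 15.1 ± 0.945 FPKM in LoVo (0.16 ± 0.079, limma adjusted p = 0.137). Without LoVo-HM replicate 3 XRCC3 passed the test (limma adjusted p = 0.0351, range 0.0351 to 0.368 over all alternatives). XRCC3 shares 45.3% of its exonic bases with the opposite-strand gene KLC1 (-0.04 ± 0.077). RAD52, a strand annealing protein, was at 7.77 ± 0.559 FPKM in LoVo-HM, against 6.87 ± 0.682 FPKM in LoVo and did not pass (0.16 ± 0.086).

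Of the proteins that promote strand exchange, RAD51AP1, RAD54L and RAD54B rose. RAD51AP1, which stimulates pairing of the broken strand with its template, was at 35.8, 29.03 and 34.3 FPKM in LoVo-HM, against 28.1, 26.7 and 25.8 FPKM in LoVo (0.29 ± 0.080, limma adjusted p = 0.0184). That call was lost without LoVo-HM replicate 1, LoVo-HM replicate 3, LoVo replicate 2 or LoVo replicate 3 (limma adjusted p = 0.0669, 0.056, 0.0531 and 0.0596). RAD54L, the motor protein that remodels DNA for strand exchange, was at 8.59, 9.10 and 8.56 FPKM in LoVo-HM, against 7.06, 6.17 and 6.46 FPKM in LoVo (0.37 ± 0.071, limma adjusted p = 0.00316). It shares 18.0% of its exonic bases with LRRC41 on the opposite strand (-0.06 ± 0.061). RAD54B, its relative, was at 11.02, 9.76 and 12.04 FPKM in LoVo-HM, against 8.29, 9.01 and 8.32 FPKM in LoVo (0.32 ± 0.082, limma adjusted p = 0.0129). RAD54B shares 63.3% of its exonic bases with the same-strand gene FSBP, listed at 0.556 ± 0.328 FPKM in LoVo-HM, against 0.571 ± 0.354 FPKM in LoVo. RAD54L2, included by its symbol alone, did not pass (6.70 ± 0.356 FPKM in LoVo-HM, against 6.16 ± 0.480 FPKM in LoVo, 0.11 ± 0.077). Of the RecQ helicases, BLM, which dissolves joint molecules, was at 8.33 ± 0.407 FPKM in LoVo-HM, against 7.38 ± 0.792 FPKM in LoVo without overlap (0.16 ± 0.085, limma adjusted p = 0.166), and WRN at 10.9 ± 0.349 FPKM in LoVo-HM, against 11.2 ± 0.665 FPKM in LoVo (-0.03 ± 0.065).

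**Figure D3:**
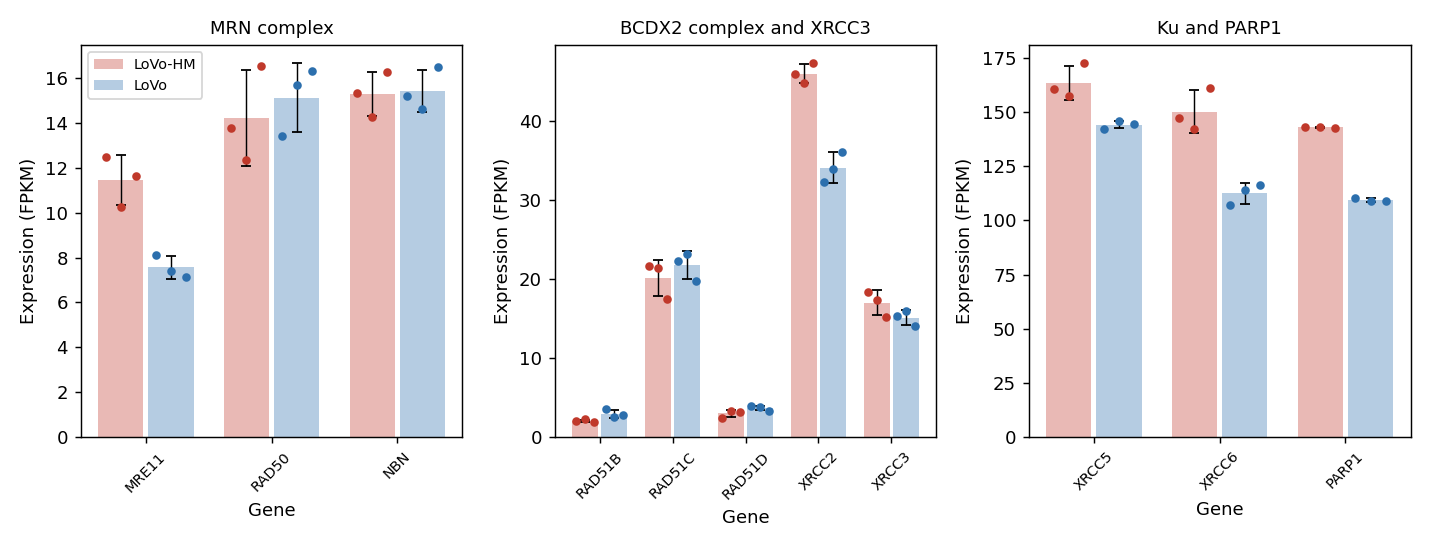
FPKM of the MRN complex, of the BCDX2 complex with XRCC3, and of Ku with PARP1, with red bars for LoVo-HM and blue bars for LoVo (mean, error bars 1 SD, points the 3 libraries of each line, axes from 0). MRE11 is at 11.5 FPKM in LoVo-HM, against 7.56 FPKM in LoVo while RAD50 and NBN overlap, and XRCC2 stands above the other genes of its panel in both lines.

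None of the 4 damage kinases passed limma's test, and CHEK2 alone of them had an unadjusted p under 0.05. ATM, which answers to double-strand breaks (ENSG00000149311, chromosome 11, 108222484 to 108369102), was at 7.16, 6.40 and 7.28 FPKM in LoVo-HM, against 5.96, 6.44 and 6.67 FPKM in LoVo (0.11, 95% interval -0.06 to 0.29, limma adjusted p = 0.271). ATR, which answers to stalled forks (ENSG00000175054, chromosome 3, 142449235 to 142578826), was at 9.004, 9.10 and 10.1 FPKM in LoVo-HM, against 9.76, 8.79 and 10.003 FPKM in LoVo (-0.02, 95% interval -0.19 to 0.15, limma adjusted p = 0.866). CHEK1, the kinase downstream of ATR (ENSG00000149554, chromosome 11, 125625136 to 125676255), was at 19.02, 17.2 and 21.6 FPKM in LoVo-HM, against 16.6, 16.4 and 20.9 FPKM in LoVo (0.10, 95% interval -0.15 to 0.35, limma adjusted p = 0.494). The groups of these 3 kinases overlapped, and CHEK1 had the widest spread within each line. CHEK2, the kinase downstream of ATM, was at 12.5 ± 0.231 FPKM in LoVo-HM, against 14.1 ± 1.04 FPKM in LoVo, without overlap (-0.16 ± 0.066, unadjusted p = 0.0437, limma adjusted p = 0.0856).

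In end joining both Ku subunits rose and the ligase complex did not pass. XRCC6, which encodes Ku70 (ENSG00000196419, chromosome 22, 41621119 to 41664048), was at 147.4, 142.3 and 161.3 FPKM in LoVo-HM, against 107.1, 114.02 and 116.5 FPKM in LoVo (0.41 ± 0.056, limma adjusted p = 0.000448). XRCC5, which encodes Ku80 (ENSG00000079246, chromosome 2, 216107464 to 216206303), was at 160.6, 157.5 and 172.6 FPKM in LoVo-HM, against 142.4, 145.9 and 144.7 FPKM in LoVo (0.18 ± 0.045, limma adjusted p = 0.0112). Neither subunit's groups overlapped, and the ratio of XRCC6 to XRCC5 was 0.918, 0.904 and 0.935 in LoVo-HM, against 0.752, 0.782 and 0.805 in LoVo. LIG4, the ligase of end joining, was at 9.69 ± 1.09 FPKM in LoVo-HM, against 8.52 ± 0.399 FPKM in LoVo (0.16 ± 0.084), and its partner XRCC4 at 4.62 ± 0.397 FPKM in LoVo-HM, against 4.33 ± 0.765 FPKM in LoVo (0.08 ± 0.112).

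PARP1 had the smallest p of the 44 genes. PARP1, which makes poly(ADP-ribose) at DNA breaks (ENSG00000143799, chromosome 1, 226360691 to 226408079), was at 143.1, 143.4 and 142.6 FPKM in LoVo-HM, against 110.6, 108.96 and 109.2 FPKM in LoVo. The libraries of each line lay close together, and the gap between the lines was far wider (0.38 ± 0.035, limma adjusted p = 4.4e-05). PARP2, a relative with the same activity, was at 21.3 ± 1.54 FPKM in LoVo-HM, against 19.8 ± 1.16 FPKM in LoVo (0.10 ± 0.069). The scaffold XRCC1 was at 13.2 ± 0.608 FPKM in LoVo-HM, against 12.3 ± 0.595 FPKM in LoVo (0.10 ± 0.064), and the ligase LIG3 at 6.07 ± 0.441 FPKM in LoVo-HM, against 5.93 ± 0.171 FPKM in LoVo (0.03 ± 0.074). None of these 3 passed limma's test, and their unadjusted p was 0.182, 0.159 and 0.709. LIG3 shares 43.8% of its exonic bases with RFFL on the opposite strand (0.03 ± 0.067).

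The 24 genes whose groups did not overlap were 54.5% of the 44, where 55% of all tested genes had such groups. Of these, 20 (45.5%) were higher in LoVo-HM, where 27.1% of all tested genes were, and 4 (9.09%) were lower, where 27.9% were. The SE of a gene's log2 difference was 0.035 to 0.115, with a median of 0.076. Among the 44 genes the smallest called difference was 0.17 (FANCI, SE 0.052), and the largest that was not called was -0.24 (RAD51D, SE 0.107). Whether a difference of this size passed thus depended on the SE of the gene.

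The other genes of these pathways were counted in the same fit, in which 21.8% of all tested genes rose and 23.1% fell. Of 18 further Fanconi pathway genes 4 rose (22.2%, near the share of all tested genes) and 0 fell by limma (median 0.06). USP1, which removes ubiquitin from FANCD2, was at 44.2 ± 2.13 FPKM in LoVo-HM, against 34.2 ± 1.38 FPKM in LoVo (0.36 ± 0.054). The core-associated CENPX, FAAP20 and FAAP100 rose by 0.25 ± 0.073, 0.45 ± 0.139 and 0.15 ± 0.055. Of these, FAAP20 had groups that overlapped, and FAAP100 passed narrowly (limma adjusted p = 0.0485). The count of Fanconi pathway genes that rose was 1 without LoVo-HM replicate 1, and 2 without LoVo-HM replicate 2 or any of the 3 LoVo libraries. Of 29 further recombination genes 9 rose (31%) and 2 fell (6.9%), with a median of 0.16. The nuclease DNA2 rose (13.2 ± 0.348 FPKM in LoVo-HM, against 8.89 ± 0.497 FPKM in LoVo), as did RPA3, a subunit of the protein that coats exposed strands (14.4 ± 0.520 FPKM in LoVo-HM, against 9.57 ± 0.747 FPKM in LoVo), and the helicase RECQL4 (0.45 ± 0.058). SFR1, which aids strand exchange, fell (3.01 ± 0.328 FPKM in LoVo-HM, against 7.19 ± 1.15 FPKM in LoVo, -1.03 ± 0.113, limma adjusted p = 0.000127), a larger change than that of any of the 44 genes. The other one that fell was SLX1A, a nuclease subunit gene with the near-identical copy SLX1B, so its value is uncertain (-0.27 ± 0.070, named after its value was seen).

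Of 13 tested further end joining genes 6 rose (46.2%) and 2 fell (15.4%), with a median of 0.14. Of all tested genes 21.8% rose and 23.1% fell. PAXX, a Ku-binding factor, rose by 0.47 ± 0.077, and PRKDC, the catalytic subunit of the kinase that Ku recruits, by 0.26 ± 0.044. APTX, which removes blocked ends, and the polymerase POLL fell (-0.34 ± 0.071 and -0.26 ± 0.089). The end joining genes that fell numbered 1 without LoVo-HM replicate 1 or 2 and without LoVo replicate 1 or 2. Of 16 base excision genes 6 rose (37.5%) and 2 fell (12.5%), with a median of 0.08. The uracil glycosylase UNG was at 65.5 ± 2.33 FPKM in LoVo-HM, against 37.97 ± 0.858 FPKM in LoVo (0.77 ± 0.047), the flap nuclease FEN1 and the abasic site nuclease APEX1 rose by 0.38 ± 0.050 and 0.32 ± 0.050, and the glycosylase NEIL2 and PARP3 fell (-0.30 ± 0.059 and -0.46 ± 0.094). Without LoVo-HM replicate 2 the base excision genes that fell numbered 3. Of 18 further damage checkpoint genes 10 rose (55.6%) and 1 fell (5.56%), with a median of 0.18. The histone H2AX gene, under its older symbol H2AFX, rose by 0.44 ± 0.044, CDC25B by 0.23 ± 0.052, TOPBP1, an activator of ATR, by 0.20 ± 0.049 and TIMELESS by 0.18 ± 0.045, while ETAA1, also an activator of ATR, fell (-0.29 ± 0.096). POLL, PARP3 and ETAA1 were named after their values were seen. Without LoVo-HM replicate 2 or LoVo replicate 2 the count of checkpoint genes that rose was 6, and none of them fell by limma without LoVo-HM replicate 1, LoVo-HM replicate 2 or LoVo replicate 3.

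Genes of DNA replication and mitosis were counted beside the repair genes, in the fit where 21.8% of all tested genes rose. Of 29 replication genes 21 rose and 0 fell by limma (72.4%, median 0.34), and of 24 mitotic genes 22 rose and 0 fell (91.7%, median 0.35). The replicative helicase subunits MCM7, MCM5, MCM4 and MCM3 rose by 0.58 ± 0.041, 0.72 ± 0.053, 0.48 ± 0.045 and 0.41 ± 0.039. Of the mitotic genes, CENPF, KIF20A, CCNF and AURKB rose by 0.71 ± 0.054, 0.52 ± 0.041, 0.54 ± 0.048 and 0.44 ± 0.049. The summed level of the replication genes was 1731 to 1773 FPKM in LoVo-HM, against 1330 to 1361 FPKM in LoVo, and that of the mitotic genes 1458 to 1531 FPKM in LoVo-HM, against 1162 to 1183 FPKM in LoVo. Many recombination genes are transcribed mainly in S and G2 phase, so these values stand beside those of the repair genes, and their part in the result was not tested.

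**Figure D4:**
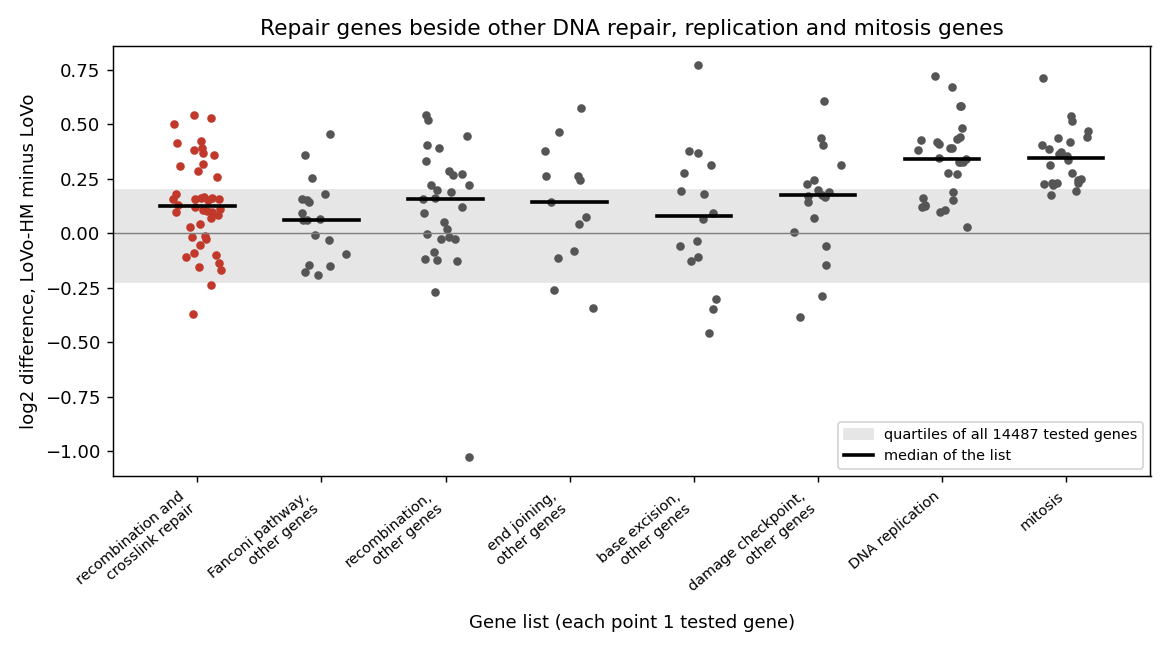
Log2 difference (LoVo-HM minus LoVo) of each tested gene, with the 44 recombination and crosslink repair genes in red and 7 further lists in grey; black lines are list medians and the grey band spans the quartiles of all 14487 tested genes, -0.23 to 0.20. The medians are 0.13 for the 44 repair genes, 0.34 for the replication list and 0.35 for the mitosis list.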

How the data were processed

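RNA was extracted with Trizol and made into Illumina TruSeq RNA libraries, 3 per line, per the labels' protocols. What the authors deposited is a single FPKM table of all 6 libraries, made on build GRCh38 per the submitters' processing notes. Aligner, counter, annotation and strand setting: not given in the sources used here. Values below 0.3 FPKM showed no steps worth 1 read (1572 genes, commonest bin of 0.05 log2 units 2.61%), so depth is unknown.

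FPKM were used as deposited, as log2(FPKM + 1). Rows with a mean of 0.5 FPKM or more (14487) entered limma 3.58.1 (R 4.3.3) with a variance trend and two-sided moderated tests. The fit was checked on simulated data. All 46 members matched GENCODE 29 by identifier, which gave positions and shared exonic bases, and promoter sequences are RefSeq's (GRCh38.p14). The members, lists and roles were chosen with earlier results of these data known, so lists are described by counts and medians without tests. All members but 1 are named, and the values of that member and of 1 gene of a further list are not reported here. Library values are given for those called with a log2 difference of at least 0.5 and for key genes fixed by name whatever their result, and were added for the other called genes, RAD51D and RAD51AP2 after the values were seen. Of each further list the 4 genes with the smallest p are named, and of the markers EPCAM, CDH1, CDX2, KRT20, PTPRC, COL1A1 and PECAM1. Other pseudocounts, filters, scalings and variance fits, the replicate number as a block and fits without each library in turn were tried as alternatives.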

Additional observations from a re-analysis of the deposited data

How the results depend on the processing

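Over 16 alternatives no called repair gene changed sign, and 11 of the 16 called repair genes kept their call in each (MRE11, FANCA, FANCC, BRCA2, RBBP8, XRCC2, RAD54L, RAD54B, XRCC5, XRCC6 and PARP1). FANCB, FANCI, BRIP1, RAD51AP1 and RAD51B lost theirs in at least 1 fit without a library, and 4 uncalled genes (BRCA1, FANCG, FANCL and XRCC3) were called in at least 1 alternative. The count of repair genes that fell, 1 as reported, was 0 without a filter on low values, 0 after quantile normalization, and 0 to 1 in the fits without 1 library. Those that rose numbered 11 to 15 without 1 library and 18 with equal totals, against 15 as reported. With equal totals the genes that rose among all tested numbered 3722, against 3161 as reported. The median log2 difference of the repair genes was 0.16 with equal totals and 0.17 after quantile normalization. Over all genes these medians were 0.03 and 0.04. Without 1 library the median of the repair genes was 0.11 to 0.15. Same-numbered libraries of the lines did not deviate together (correlations of -0.01, 0.02 and 0.03). No pairing by number was seen, though these values cannot exclude it. With the replicate number as a block 15 repair genes rose and 1 fell. Of all genes, 2532 to 2825 rose and 2883 to 3161 fell without 1 library. The causes were not tested. Depth is unknown, so what it limits cannot be stated.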
